A study of Homo sapiens with 36 samples.

Results

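The 10 genes described here encode the main enzymes that remove hydrogen peroxide and lipid hydroperoxides in human cells: the peroxiredoxins PRDX1 to PRDX6, the glutathione peroxidases GPX1, GPX4 and GPX8, and catalase (CAT). They were taken from the count table by gene symbol, through the Ensembl identifier of each row, irrespective of their values. All 10 were found among the 61587 genes of the table, and all 10 passed the filter on low counts that left 22486 genes to be tested.

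Peroxiredoxins reduce peroxide with a reactive cysteine that is afterwards restored mainly by thioredoxin, while glutathione peroxidases draw on glutathione, and catalase splits peroxide in peroxisomes without a thiol donor. The enzymes are distributed over the cell: PRDX1, PRDX2, PRDX6 and GPX1 act mainly in the cytosol, PRDX3 in mitochondria, PRDX4 in the lumen and GPX8 in the membrane of the endoplasmic reticulum (ER), and PRDX5 in several compartments. GPX4 reduces peroxidised lipids within membranes, and its loss permits the form of cell death called ferroptosis.

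The RNA came from HEK293T cells, a human embryonic kidney line carrying the SV40 large T antigen, in which TXNL1, a thioredoxin-like protein that binds the proteasome, had been knocked out. All 12 groups therefore share the TXNL1 KO. The KO cells carried an empty vector (vector line) or were complemented with WT TXNL1, with D162R R234D TXNL1, which is impaired in proteasome binding, or with SxxS TXNL1, whose thioredoxin active site lacks both cysteines. KO cells were grown out from single sorted cells, so differences between clones could not be assessed, and the proteins were expressed from integrated lentiviral vectors rather than from the TXNL1 locus. Treatment of each of the 4 lines lasted 6 h, with hydrogen peroxide (H2O2) at 600 µM or arsenite at 100 µM, beside untreated cells (labelled DMSO), with 3 replicates in each group and 36 libraries in all. The study's methods describe treatment in triplicate in multi-well plates, and nothing in the labels says that replicates came from independent experiments. The p-values therefore measure the spread between these libraries, which may be smaller than that between independent experiments.

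The libraries held 42072410 to 174119002 counts each (median 66016833). TXNL1 itself had 28.6 to 31.7 CPM (counts scaled to a common library size) in the 3 untreated vector libraries, and 52.1 to 58, 59.3 to 66.2 and 51.7 to 55 CPM in the untreated WT, D162R R234D and SxxS libraries, so that the complemented lines stood apart from the vector line. The KO was made by genome editing, and transcripts of an edited gene can still be counted. Of the HEK293T markers examined, VIM was at 452 to 609 CPM and KRT18 at 42.6 to 78.9 CPM. CDH2 had 27.3 to 70 CPM and KRT8 13.7 to 21.5 CPM. However, the neurofilament genes NEFL and NEFM, and PAX2, reached no more than 3.15, 0.299 and 0.821 CPM. The markers of blood, liver and endothelial cells (PTPRC, HBB, ALB and PECAM1) were at or near 0 in all libraries. The collagen genes COL1A1 and COL1A2, markers of fibroblasts, were at 9.97 to 22.5 and 0 to 4.88 CPM. In bulk RNA, a smaller share of cells expressing a gene and less RNA per cell cannot be told apart.

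A pair of libraries stood apart from the rest. The SD of log2 CPM around the group median was 0.59 in WT H2O2 replicate 2 and 0.51 in WT arsenite replicate 1, against 0.05 to 0.16 in the other 34 libraries. The peroxidase genes departed in a common pattern in both. The 7 genes with exons of at most 2311 bases in the count table (PRDX1, PRDX2, PRDX4, PRDX5, PRDX6, GPX1 and GPX4) were 1.37 to 2.02 times the mean of the other 2 replicates in WT H2O2 replicate 2, and 1.26 to 1.82 times in WT arsenite replicate 1. The 3 genes with longer exons, PRDX3, CAT and GPX8, were 0.854 to 0.962 and 0.858 to 0.979 times that mean, respectively. PRDX5, the shortest at 860 bases, was raised the most in both libraries. The part of exon length in this was not tested. Each result below is therefore given over all 36 libraries and, where they matter, over the 34 that remain without this pair.

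**Figure D1:**
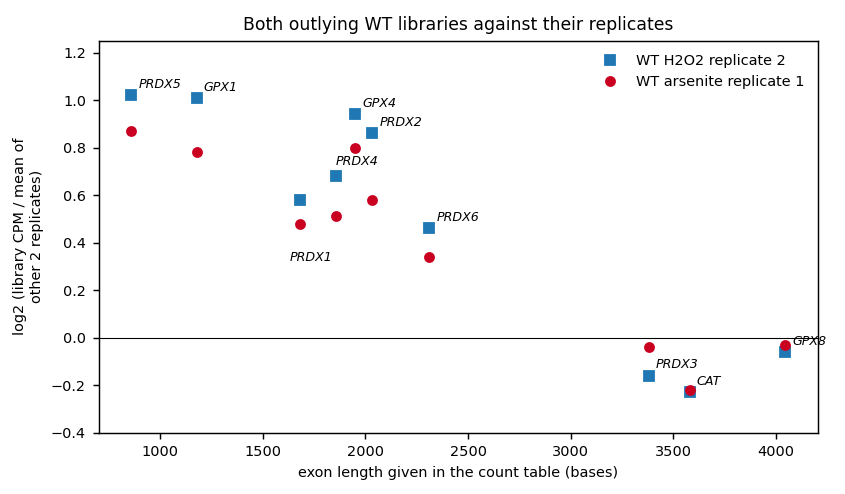
Exon length of each of the 10 genes in bases (x axis) against the log2 ratio of its CPM in WT H2O2 replicate 2 (blue squares) or WT arsenite replicate 1 (red circles) to the mean CPM of the other 2 replicates of the same group (y axis). The 7 genes with exons up to 2311 bases lie above 0 in both libraries and the 3 longer genes lie below it.

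First the levels in untreated cells were compared between the genes, with CPM divided by exon length so that genes of different length could be set side by side. PRDX1, the most abundant cytosolic peroxiredoxin, had 519 ± 27.4 CPM per kilobase (SD over 12 untreated libraries) and stood above all the others. GPX1 and GPX4 followed, each with a mean of 191 CPM per kilobase and with overlapping ranges of 166 to 234 and 168 to 232. The next group was PRDX6 at 153 ± 5.73, PRDX2 at 130 ± 10.6 and PRDX5 at 126 ± 14 CPM per kilobase, whose ranges overlapped between neighbours. PRDX3 (88.3 ± 2.39) and PRDX4 (68 ± 4.25) were lower and did not overlap with any neighbour in the order. Catalase at 12.3 ± 0.718 and GPX8 at 10 ± 0.365 CPM per kilobase were the lowest, and their ranges of 10.7 to 13.5 and 9.38 to 10.6 did not overlap either. The exon length in the table equalled the merged exons of GENCODE 44 for 8 of the 10 genes. For GPX1 (1178 against 1432 bases) and GPX4 (1951 against 1840 bases) it did not, so the equal levels of this pair depend on the length used.

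**Figure D2:**
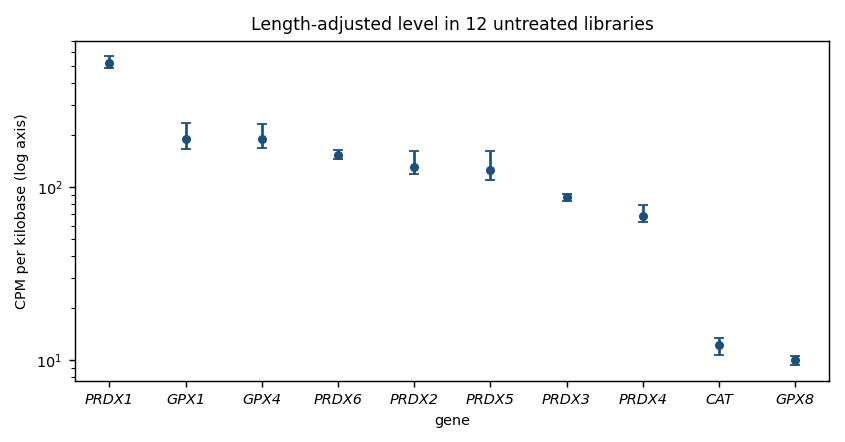
Level of each gene in CPM per kilobase of exon (log y axis) in the 12 untreated libraries, as the mean (points) and the lowest to highest library (bars), with genes ordered by mean (x axis). PRDX1 stands at the top with 487 to 571, and CAT and GPX8 lie at the bottom, at 10.7 to 13.5 and 9.38 to 10.6.

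Among the glutathione peroxidases, GPX1 and GPX4 belong to the selenoproteins and GPX8 does not, which can be read from their coding sequences. The codon of the catalytic residue, in capitals below with its neighbouring codons, is TGA in GPX1 (codon 49) and in GPX4 (codon 73), where it is read as selenocysteine and not as a stop. At the matching place GPX8 has TGC, a cysteine codon (codon 79). The windows were read from the GENCODE 44 transcripts, 5′ to 3′:
GPX1: gtggcgtccctcTGAggcaccacggtc
GPX4: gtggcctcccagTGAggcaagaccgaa
GPX8: gtggccagtgacTGCcaactcacagac

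The first comparison asked how the peroxidase genes respond to arsenite. The largest change by far was in GPX8 (ENSG00000164294, GRCh38 chr5:55160167-55167297, plus strand, 3 merged exons), the ER-membrane glutathione peroxidase. Its level lay between 38 and 42.8 CPM in the 12 untreated libraries (median 40.3), and between 17.4 and 21.2 CPM (median 18.4) in the 12 arsenite libraries. The groups did not overlap, and each arsenite library was below each untreated library by a wide margin. Averaged over the 4 lines, GPX8 fell by 54.2% (log2 fold change -1.13, SE 0.028, adjusted p = 1.49e-24 in edgeR's quasi-likelihood test), with a 95% interval of -1.18 to -1.07. A fall of this size was not particular to GPX8, since 1480 genes (6.58% of those tested) were called with a log2 fold change of -1 or below.

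The fall of GPX8 was found in each line. In vector cells the 3 untreated libraries had 42.7, 40.1 and 39.7 CPM and the arsenite libraries 17.4, 19.3 and 18.3 CPM. In WT cells these were 42.4, 42.8 and 40.2 against 19.3, 21.2 and 18.3 CPM. In D162R R234D cells they were 41, 38 and 39.4 against 18.4, 17.4 and 18.4 CPM, and in SxxS cells 41.4, 39.6 and 40.5 against 18.5, 18.9 and 17.8 CPM. The log2 fold changes were -1.15, -1.1, -1.13 and -1.14, respectively, each with an SE of 0.056, and the test for a difference between lines gave an adjusted p of 0.971. Leaving out any 1 library moved the average over lines only between -1.14 and -1.12, and without both outlying libraries it was -1.15.

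The 250 bases before the RefSeq transcription start of GPX8 (GRCh38.p14, chr5:55159921-55160170, plus strand) are shown because this gene moved the most. Of the 5 short motifs searched for on both strands, 1 was found there: TGATGNAA, part of the element bound by C/EBP and ATF proteins, which occurred on the minus strand, its first base at position -189 from the start, and is in capitals:
GPX8: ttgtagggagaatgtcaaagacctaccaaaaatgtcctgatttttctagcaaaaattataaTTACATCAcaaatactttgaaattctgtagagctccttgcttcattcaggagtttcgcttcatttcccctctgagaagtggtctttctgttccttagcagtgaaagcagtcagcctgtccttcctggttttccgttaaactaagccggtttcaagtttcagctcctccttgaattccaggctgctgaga

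TGATGNAA occurred in 3.14% of 35116 such windows of the genome and in no other peroxidase window. Windows were found for 8 of the 10 genes, 11 windows in all, and not for PRDX1 and PRDX6. The antioxidant response element TGACNNNGC (10.9% of all windows), the heat shock element (0.441%) and the metal response element TGCACNC (9.87%) were in none of the 11. The metal response element in the form TGCGCNC, present in 16.8% of all windows, was in 4 of the 11, from PRDX2, PRDX5, GPX1 and GPX4. PRDX5 and GPX4 also had windows without a match. A match describes these letters only, and no match says nothing of the factor.

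With arsenite, 7 of the 10 genes were called at an adjusted p under 0.05, averaged over the lines, against 68.8% of all tested genes. Of these, 4 were lower (31.5% of all genes) and 3 were higher (37.4%), so neither share stands out from the background. The median absolute log2 fold change was 0.21 over the 10 genes and 0.37 over all genes tested. Apart from GPX8, no called change exceeded 19.5%.

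Among the peroxiredoxins, PRDX3, the mitochondrial enzyme, fell uniformly. Untreated libraries had 282 to 308 CPM (median 299) and arsenite libraries 246 to 274 CPM (median 252), with no overlap. The log2 fold change was -0.23 (SE 0.021, adjusted p = 1.06e-10). PRDX3 and GPX8 were the only 2 of the 10 genes whose 12 arsenite libraries were separated from the 12 untreated ones, a separation seen in 30% of all genes.

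PRDX1, in the cytosol, also fell. It had 819 to 960 CPM (median 859) in untreated libraries and 670 to 1040 CPM (median 721) with arsenite. Of the arsenite libraries only WT replicate 1, at 1040 CPM, was not below the untreated range, and the remaining 11 arsenite libraries reached at most 760 CPM. The log2 fold change was -0.24 (SE 0.055, adjusted p = 0.000297) and became -0.30 (SE 0.0227, adjusted p = 7.01e-15) without both outlying libraries, when PRDX1 too was separated from the untreated libraries, as were 35.7% of all genes.

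PRDX2, the second cytosolic peroxiredoxin, rose with arsenite, from 243 to 327 CPM (median 259) to 262 to 449 CPM (median 293). PRDX5, found in mitochondria, peroxisomes and cytosol, rose from 94.7 to 139 CPM (median 106) to 108 to 222 CPM (median 123). The ranges overlapped for both genes, and the highest arsenite library of each was WT replicate 1. The log2 fold changes were 0.20 (SE 0.075, adjusted p = 0.0192) for PRDX2 and 0.26 (SE 0.097, adjusted p = 0.0208) for PRDX5. They were smaller but still called without both outlying libraries, at 0.13 (adjusted p = 0.000671) and 0.15 (adjusted p = 0.00623). Without WT arsenite replicate 1 alone, neither was called (adjusted p = 0.0546 and 0.0677).

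PRDX4, the ER peroxiredoxin, and PRDX6, which uses glutathione, did not pass the test, with log2 fold changes of -0.05 (95% interval -0.18 to 0.08) and -0.01 (-0.10 to 0.08). Without both outlying libraries both were called as lower, at -0.12 (adjusted p = 0.000146) and -0.06 (adjusted p = 0.0105), so that 9 of 10 genes were called beside 73.7% of all genes.

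Among the selenoprotein genes, GPX4 was called as higher and GPX1 was not called. GPX4 went from 327 to 453 CPM (median 375) in untreated to 396 to 718 CPM (median 410) in arsenite libraries, a log2 fold change of 0.23 (SE 0.086, adjusted p = 0.0207) that was 0.13 (adjusted p = 0.000422) without both outlying libraries and was not called without WT arsenite replicate 1 alone (adjusted p = 0.065). GPX1 went from 196 to 276 CPM (median 229) to 210 to 442 CPM (median 239), and was not called either over all libraries (0.16, adjusted p = 0.109) or without both outlying ones (0.07, adjusted p = 0.118). Part of the GPX1 exons (572 bases, 39.9%) lies in a same-strand gene model, ENSG00000290318. No counts were found for that model, which would also be so if the count table did not list it. The processed pseudogene GPX1P1 had 1.85% as many counts as GPX1.

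Catalase fell slightly with arsenite. It had 38.3 to 48.3 CPM (median 44.1) in untreated and 36.7 to 43.7 CPM (median 41.3) in arsenite libraries, which overlapped. The log2 fold change was -0.10 (SE 0.034, adjusted p = 0.0105), and -0.10 (SE 0.0253, adjusted p = 0.000564) without the outlying pair.

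**Figure D3:**
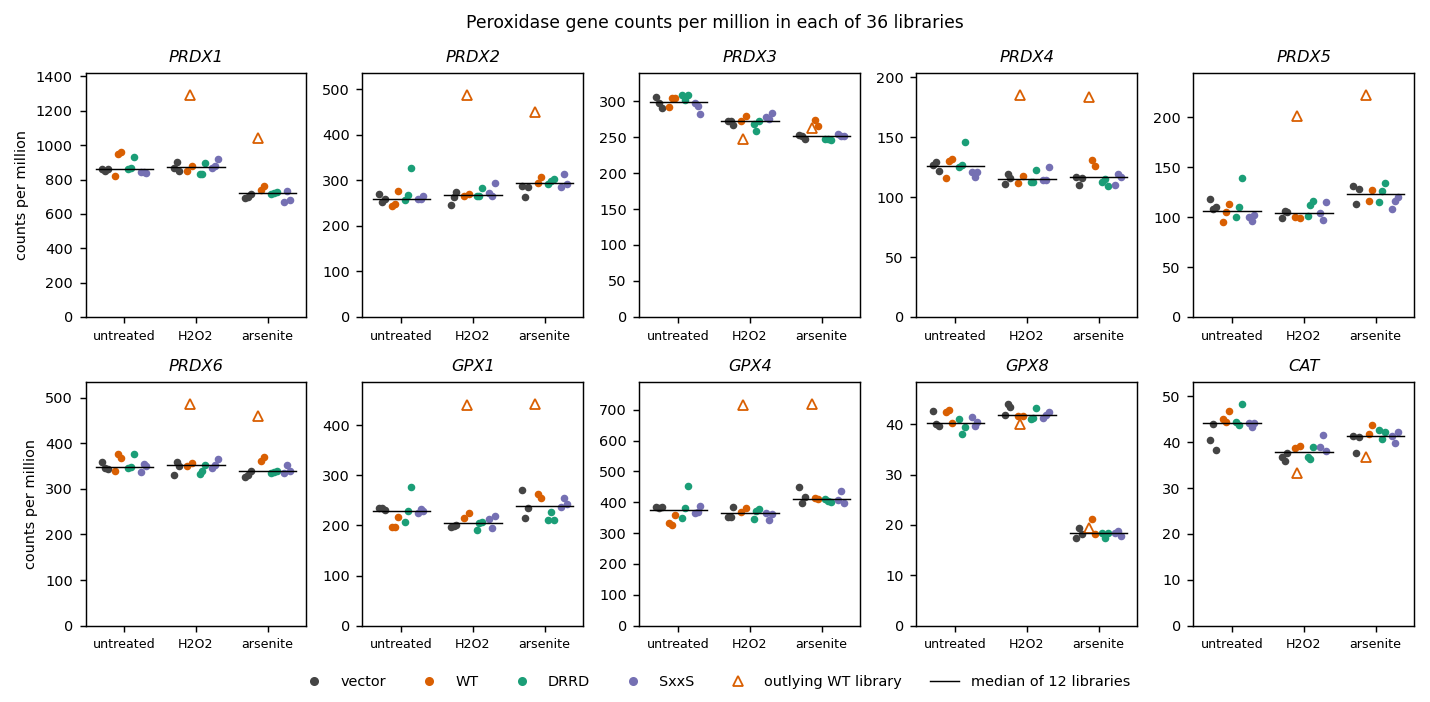
CPM of each gene (y axis, starting at 0) in each of the 36 libraries, by treatment (x axis) and line (colours, with DRRD for D162R R234D), with the median of the 12 libraries of a treatment as a line. Open triangles are WT H2O2 replicate 2 and WT arsenite replicate 1. GPX8 with arsenite (17.4 to 21.2 CPM) lies well below its untreated libraries (38 to 42.8 CPM), whereas the other genes move little beside the triangles.

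The second comparison asked whether H2O2, the substrate of these enzymes, changed their transcripts. At this dose and time 2 of the 10 genes were called, against 12.1% of all genes tested, and both were lower (5.3% of all genes). Catalase fell by 14.1%, from 38.3 to 48.3 CPM (median 44.1) in untreated libraries to 33.3 to 41.5 CPM (median 37.8) with H2O2. The log2 fold change was -0.22 (SE 0.034, adjusted p = 2.88e-05), and -0.21 (adjusted p = 6.55e-08) without both outlying libraries. The ranges overlapped because the vector line was low without treatment, at 40.4, 43.9 and 38.3 CPM, and an H2O2 library of SxxS cells reached 41.5 CPM. Within the vector line the H2O2 libraries, at 36.8, 36 and 37.6 CPM, were all below the untreated ones.

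PRDX3 fell by 9.35%, to 248 to 283 CPM (median 272) from 282 to 308 CPM (median 299). Only the H2O2 library at 283 CPM and the untreated library at 282 CPM, both of SxxS cells, made the ranges overlap. The log2 fold change was -0.14 (SE 0.021, adjusted p = 2.4e-05) and -0.13 (adjusted p = 4.14e-08) without both outlying libraries. None of the 10 genes was separated between H2O2 and untreated libraries, compared with 1.15% of all genes.

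The other 8 genes did not pass the test with H2O2. Their log2 fold changes lay between -0.05 (PRDX4) and 0.11 (PRDX2), and the 95% intervals of PRDX1 (-0.06 to 0.16), PRDX6 (-0.06 to 0.11) and GPX8 (-0.01 to 0.10) were narrow. The intervals of PRDX5 (-0.14 to 0.26), GPX1 (-0.20 to 0.17) and GPX4 (-0.11 to 0.24) were wider. Without both outlying libraries PRDX4 (-0.12, adjusted p = 0.000434) and GPX1 (-0.13, adjusted p = 0.0128) were called as lower too, so that 4 of 10 genes were called beside 28.6% of all genes.

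**Figure D4:**
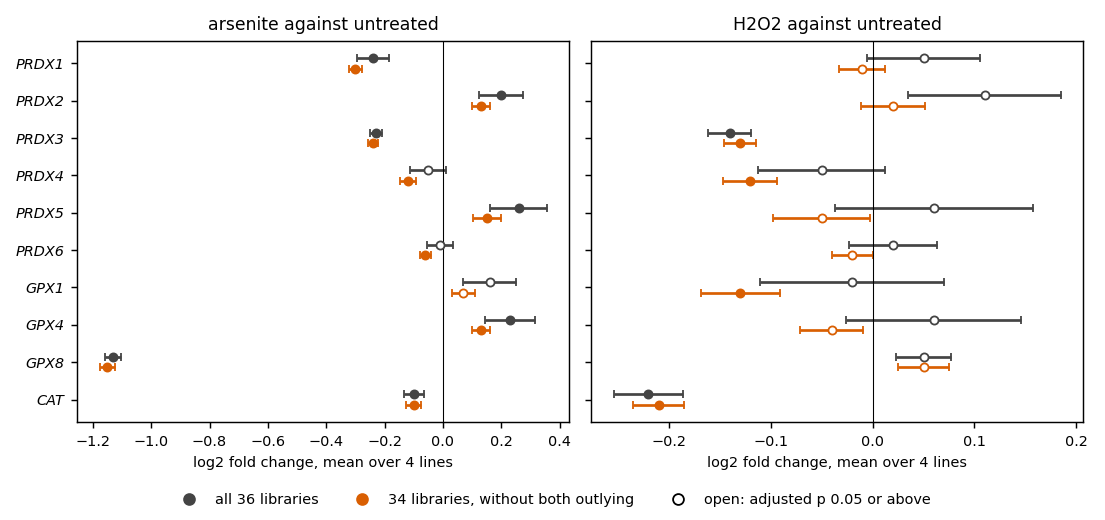
Log2 fold change averaged over the 4 lines (x axis) for each gene (y axis), with arsenite (left) and H2O2 (right) against untreated cells. Bars are standard errors, grey points use all 36 libraries, orange points the 34 without both outlying WT libraries, and open points have an adjusted p of 0.05 or above. With arsenite GPX8 lies at -1.13 and all others between -0.24 and 0.26, and with H2O2 the called falls are those of PRDX3 (-0.14) and CAT (-0.22) over all libraries.

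Arsenite and H2O2 were next compared with each other. The comparisons of either agent with untreated cells share the same untreated libraries, so only the direct difference was tested. It was called for 4 of the 10 genes (68.7% of all genes), with 3 lower with arsenite (31.3%) and 1 higher (37.3%). GPX8 was lower with arsenite than with H2O2 by 1.18 on the log2 scale (SE 0.028, adjusted p = 5.12e-25), and its H2O2 libraries, at 40.1 to 44 CPM, did not overlap with the arsenite ones, as was the case for 21.3% of all genes. PRDX1 was lower with arsenite (-0.29, adjusted p = 3.11e-05), as was PRDX3 by a small amount (-0.09, adjusted p = 0.00068). Catalase was higher with arsenite than with H2O2 (0.12, adjusted p = 0.00233), being lower with both than without treatment. Without both outlying libraries PRDX2, PRDX5, GPX1 and GPX4 were also called, all higher with arsenite (0.11 to 0.20), which made 8 of 10 genes against 74.8% of all genes. Then 3 genes (GPX8 and PRDX1 lower, GPX4 higher) were separated between the agents, as were 40.9% of all genes.

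Within single lines, arsenite called GPX8, PRDX3 and PRDX1, all lower, in the vector, D162R R234D and SxxS lines, which was 3 of 10 genes in each. Of all genes 43.4%, 44% and 43.6% were called in these lines, and 21.4%, 21.5% and 21.5% were called as lower. The log2 fold changes in these lines were -0.25, -0.31 and -0.20 for PRDX3 and -0.29, -0.30 and -0.28 for PRDX1. The calls of PRDX1 were close to the threshold (adjusted p = 0.0346, 0.0284 and 0.0382), and leaving out any 1 vector library ended the call there (adjusted p up to 0.0832), as did 4 of the 6 removals in D162R R234D (up to 0.0861) and 5 of 6 in SxxS cells (up to 0.109). Without both outlying WT libraries, which enter the spread of all groups, the adjusted p of PRDX1 was at most 2.88e-07 in these 3 lines.

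In WT cells, 6 of 10 genes were called with arsenite (53.6% of all genes): GPX8 and PRDX3 as lower (24.9% of all genes), and, among 28.7% of all genes, GPX1 (0.66), GPX4 (0.60), PRDX5 (0.57) and PRDX2 (0.45) as higher. The latter 4 calls were all lost without arsenite replicate 1 alone, at 0.35 for GPX1 (adjusted p = 0.0972), 0.28 for GPX4 (0.15), 0.22 for PRDX5 (0.334) and 0.23 for PRDX2 (0.201). The call of PRDX5 was also lost without WT untreated replicate 1. GPX1 had 196, 196 and 217 CPM untreated and 442, 262 and 254 CPM with arsenite, and GPX4 had 332, 327 and 360 against 718, 414 and 410 CPM. Replicates 2 and 3 were still above all 3 untreated libraries for both genes. Without the outlying pair, when the spread was also smaller, the changes were 0.32 for GPX1 (adjusted p = 0.0019), 0.25 for GPX4 (adjusted p = 0.00206) and 0.21 for PRDX2 (adjusted p = 0.0115), PRDX5 was not called (0.20, adjusted p = 0.117), and PRDX1 was called as lower (-0.30), as in the other lines.

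With H2O2, catalase and PRDX3 were called as lower in the WT line (-0.29 and -0.17) and in the D162R R234D line (-0.28 and -0.20), where the shares of all genes called were 8.06% and 1.03%, and of those called as lower 2.26% and 0.525%. In the D162R R234D line the call of CAT was lost in 5 and that of PRDX3 in 4 of the 6 fits with 1 library left out (adjusted p up to 0.178 and 0.11), and in the WT line that of PRDX3 in 3 (up to 0.112) and that of CAT in 1, without WT H2O2 replicate 2 (0.0703). Neither was called in the vector line (-0.15 and -0.14) or in the SxxS line (-0.15 and -0.06), and 0 of the 10 genes passed edgeR's test in these lines (1.35% and 1.02% of all genes). At an unadjusted p under 0.05 there were 2 genes in vector and 1 in SxxS cells, and DESeq2 called 1 and 0, beside 538 and 443 of all genes. Without both outlying libraries both were called in vector cells as well (adjusted p = 0.0329 for CAT and 0.00152 for PRDX3), where 9.87% of all genes were then called.

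Whether the lines differed in their response was tested directly by the interaction of line and treatment. None of the 10 genes passed, with arsenite (0% of all genes) or with H2O2 (0.685%), in edgeR, and DESeq2 called 0 as well. At an unadjusted p under 0.05 there was 1 gene with arsenite, GPX1 (6.37% of all genes), and 2 with H2O2, GPX1 and GPX4 (8.76% of all genes), both of which are among the genes raised in the outlying libraries. Without that pair, the smallest adjusted p over the 10 genes was 0.194 with arsenite, for GPX1, and 0.298 with H2O2, also for GPX1.

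The next comparison was between lines, to see whether TXNL1 or its mutants altered the peroxidase transcripts without treatment. Against the vector line, 0 of the 10 genes were called by edgeR in the WT, D162R R234D or SxxS line (0.196%, 0.0267% and 0.0178% of all genes), and DESeq2 called 0 in each. Catalase was the 1 gene with an unadjusted p under 0.05, in the WT and in the D162R R234D line, with a log2 difference of 0.15 in both (95% intervals 0.01 to 0.29 and 0.02 to 0.29). Its CPM was 45, 44.3 and 46.7 in WT and 44.3, 43.8 and 48.3 in D162R R234D cells, against 40.4, 43.9 and 38.3 in vector cells, so that the WT libraries did not overlap with the vector libraries and the D162R R234D libraries did. Intervals were narrowest for PRDX3 (-0.08 to 0.10 in the WT line) and widest for PRDX5 (-0.50 to 0.30).

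Averaged over the 3 treatments, PRDX6 was called as higher in the WT than in the vector line (log2 difference 0.17, SE 0.05, adjusted p = 0.0482), beside 4.72% of all genes (2.67% as higher). The call was close to the threshold, and with the replicate number added to the fit it was lost (adjusted p = 0.0588). Without both outlying libraries the difference was 0.07 (adjusted p = 0.0795), and catalase was called instead (0.11, adjusted p = 0.0256). With 1 library left out, the count of called genes ran from 0 to 5 and changed in 17 of 18 fits. In the D162R R234D and SxxS lines 0 of the 10 genes were called by edgeR or DESeq2 (0.133% and 0.329% of all genes), and catalase was the only gene with an unadjusted p under 0.05 in either (difference 0.08 in both).

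The genes around the peroxidases were then examined in 8 lists of 79 genes, 69 of which were tested. With arsenite 31 were called as higher and 27 as lower, which is 58 of 69 beside 68.8% of all genes (37.4% higher and 31.5% lower). With H2O2 9 were called as higher and 7 as lower, 16 of 69 beside 12.1% of all genes. Among the 11 recycling partners of the peroxidases, 5 rose and 5 fell with arsenite, against 37.4% and 31.5% of all genes, and the median log2 fold change was 0.15 against 0.06 over all genes tested. SESN2, a stress-induced sestrin, rose from 53.3 ± 2.34 to 567 ± 32.8 CPM (SD, n = 12; log2 fold change 3.41, adjusted p = 2.25e-36) and was also higher with H2O2 (0.46, adjusted p = 1.36e-13). Its relative SESN1 fell by 1.57 on the log2 scale, from 30.1 ± 0.736 to 10.1 ± 0.919 CPM. SRXN1, sulfiredoxin, which repairs overoxidised peroxiredoxins, fell by 1.23, from 40.1 ± 1.98 to 17.1 ± 1.15 CPM with arsenite (adjusted p = 6.71e-25), and was not called with H2O2 (0.04, adjusted p = 0.417).

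Of the 10 genes of glutathione and NADPH supply, 5 rose and 4 fell with arsenite (37.4% and 31.5% of all genes), with a median of 0.06, that of all genes. The cystine transporter subunits SLC3A2 (log2 fold change 2.25) and SLC7A11 (0.84) rose, while GCLC, the catalytic subunit of glutamate-cysteine ligase, fell by 0.60. With H2O2 SLC7A11 rose by about as much (0.91, adjusted p = 3e-06), and GCLM, the modifier subunit of the same ligase, rose slightly (0.16). Both tested genes of superoxide removal, SOD1 (0.39) and its copper chaperone CCS (0.51), rose with arsenite (37.4% of all genes) and were not called with H2O2. Their SD with arsenite was 76.6 and 4.83 CPM, against 16.8 and 1.35 CPM untreated, with WT arsenite replicate 1 included. Of the other glutathione peroxidases only GPX3 passed the filter, and it was not called with either agent (0.10 and 0.04).

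GPX1 and GPX4 depend on selenocysteine insertion. Of its 5 genes 4 rose with arsenite (37.4% of all genes), with a median of 0.44, among them PSTK (0.49) and EEFSEC (0.47), the elongation factor that delivers selenocysteine. The fifth, SEPHS2, which makes the selenium donor, fell by 1.68, from 90.2 ± 3.25 to 28.2 ± 3.04 CPM (adjusted p = 3.05e-26). Among 15 tested genes of other selenoproteins 6 rose and 5 fell (37.4% and 31.5% of all genes), with a median of 0.04. SELENOI fell by 0.73, while the deiodinase genes DIO2 (1.52, from 0.101 to 0.30 CPM) and DIO3 (-0.96, from 0.207 to 0.105 CPM) changed at very low levels.

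For catalase, the neighbouring list was that of peroxisome import and peroxisomal oxidases, of which 7 of 17 tested genes rose and 7 fell with arsenite (37.4% and 31.5% of all genes), with a median of -0.03. PEX6, which recycles the import receptor, rose by 0.80 on the log2 scale, from 1.73 ± 0.208 to 3 ± 0.434 CPM. With H2O2 ACOX3, a peroxisomal oxidase that produces hydrogen peroxide, fell by 0.21 (adjusted p = 3.84e-05). For PRDX4 and GPX8, the list was oxidative folding in the ER, where 5 of 8 genes fell and 2 rose with arsenite (31.5% and 37.4% of all genes). ERO1A, an oxidase that generates hydrogen peroxide in the ER, had a log2 fold change of -0.78, and the disulfide isomerase family members PDIA4 and TXNDC5 of -0.61 and -0.50. All 3 were called (adjusted p up to 1.75e-12), and the median over this list was -0.27 against 0.06 over all genes tested.

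**Figure D5:**
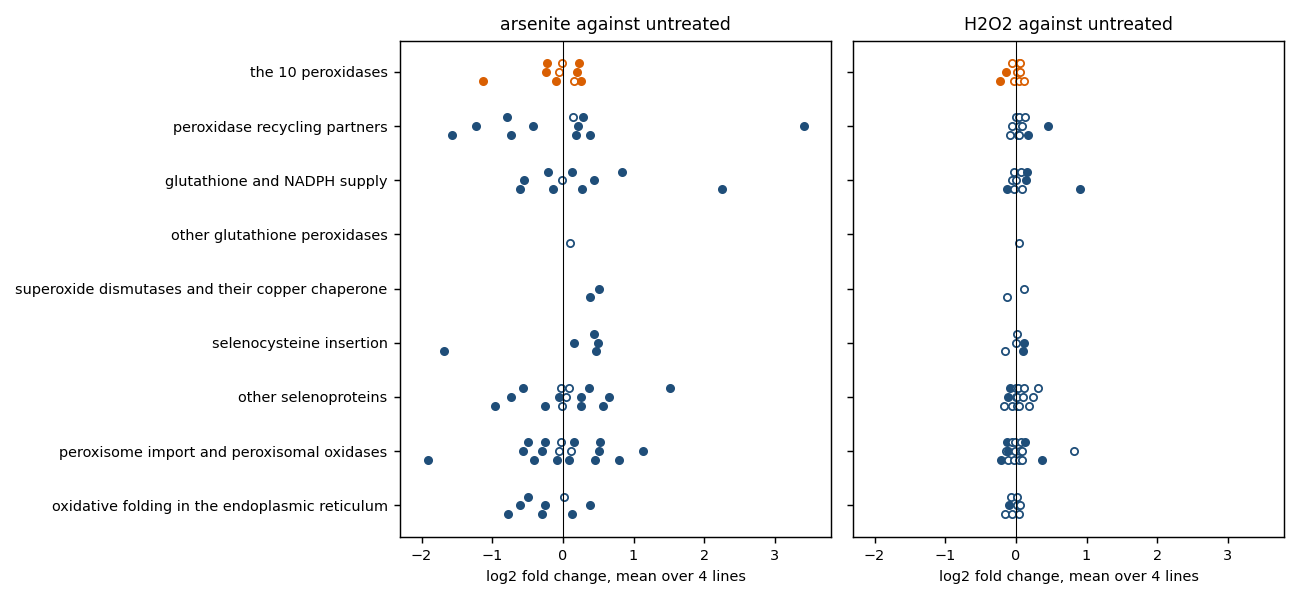
Log2 fold change averaged over the 4 lines (x axis) of each tested gene, by list (y axis), with arsenite (left) and H2O2 (right). Filled points have an adjusted p under 0.05. The 10 peroxidases (orange) lie closer to 0 with arsenite than many genes of the other lists, which reach 3.41 (SESN2).

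Finally, the genes whose group means ran most alike to GPX8 and PRDX5, the genes with the largest fall and rise, were looked up among 10246 genes with at least 10 CPM on average. Likeness was measured as the root mean square difference of log2 CPM over the 12 groups, each gene centred on its own mean. The nearest to GPX8 were ULBP3 (0.032), TBC1D13 (0.039) and C6orf62 (0.039), with log2 fold changes of -1.14, -1.12 and -1.20 with arsenite. The nearest to PRDX5 were the ribosomal protein pseudogene RPL36AP37 (0.037), CCDC159 (0.038) and CHMP4A (0.038), with fold changes of 0.27, 0.22 and 0.29 on the same scale. The group means of PRDX5 include the outlying libraries.

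Several genes share transcribed sequence with others on the opposite strand, and whether the counting used strand is not given in the sources used here. PRDX1 shares 501 bases of exon (29.8%) with MMACHC and PRDX2 247 bases (12.1%) with a long non-coding RNA, ENSG00000267062. Reads there could belong to either gene. Processed pseudogenes other than GPX1P1 held at most 0.396% as many counts as their parent gene.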

How the data were processed

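Messenger RNA of 36 libraries was sequenced as paired-end reads of 100 bases and, according to the study's methods, aligned by the authors to the GRCh38 primary assembly with qAlign of the QuasR package. The authors deposited raw read counts per gene, without normalization and with replicates kept apart, beside an exon length per gene. The annotation release, the use of strand in counting and the treatment of both mates of a pair are not given in the sources used here. Groups were taken from the sample labels.

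Identifiers were matched to GENCODE 44 for symbols and positions (61369 of 61587 had a symbol), and upstream sequences were read from RefSeq (GRCh38.p14). Genes with at least 10 counts over the 3 untreated vector libraries were kept, as in the study. Counts were fitted in edgeR 4.0.16 (limma 3.58.1, R 4.3.3) with TMM scaling, a mean for each of the 12 groups and robust quasi-likelihood dispersions (biological coefficient of variation 12.4%), and p-values were Benjamini-Hochberg adjusted over all 22486 genes. Genes with an adjusted p under 0.05 are referred to as called. CPM used TMM-scaled library sizes, standard errors are those of the fitted log2 fold changes, and intervals cover 95%. Replicates differed beyond counting noise in all 36 pairs. The fit was tested on simulated counts. Named genes were all 10 peroxidases, TXNL1, and from each list the 3 largest called changes with arsenite and the 2 largest with H2O2. GPX3, the only tested gene of its list, was added after its values were seen, and 1 gene that the rule selects is not reported here. The 10 genes, the lists and the tests were chosen with earlier results of these data known. Other settings were DESeq2 1.42.0, other scalings and filters, fewer samples, a replicate block and leaving out libraries.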

Additional observations from a re-analysis of the deposited data

How the results depend on the processing

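No called fold change of the 10 genes changed sign under any setting (49 fold changes, 422 values under other settings and 834 with 1 library left out), and GPX8, PRDX3 and CAT were called in every comparison over the 4 lines for which the text reports a call, under each setting with 3 exceptions for CAT: with arsenite over the 3 lines other than WT (adjusted p = 0.0721), and for arsenite against H2O2 with total counts (0.0885) and without the filter (0.125). The count of genes called with arsenite over the lines, 7 of 10, was 9 without both outlying libraries, 4 without the low-count filter, 3 when averaged over the 3 lines other than WT (a setting chosen after the data were seen), and 4 to 7 with 1 library left out, the 4 being without WT arsenite replicate 1. Of all genes 73.7% were called without both outlying libraries, 16542 genes without the filter and 14078 over the 3 lines other than WT. Without both outlying libraries the count of called genes was 4 with H2O2, 8 for arsenite against H2O2, 5 and 3 in vector cells with arsenite and H2O2, and 6 and 4 in D162R R234D cells. The shares of all genes were 28.6%, 74.8%, 56.4%, 9.87%, 56.9% and 10.4%, in the same order. When the fit held no other groups than those compared, the count was 7, 1 and 7 with arsenite in the vector, WT and SxxS lines, 5, 0, 0 and 1 with H2O2 in the vector, WT, D162R R234D and SxxS lines, and 2 and 1 for untreated WT and SxxS against vector. The shares of all genes were then 58.8%, 28.5% and 59% with arsenite. They were 12.5%, 0.00445%, 0.792% and 7.21% with H2O2, and 2.07% and 0.978% between the untreated lines. DESeq2 called 1 in vector and 4 in WT cells with H2O2, and 3 for WT against vector over the treatments, beside 538, 2592 and 2157 of all genes. Without the filter 0 were called with H2O2 in WT and in D162R R234D cells (1070 and 102 of all genes), and with plain total counts 0 in D162R R234D cells. For WT against vector over the treatments, 0 were called with total counts, without the filter (401 of all genes) and with the replicate block (797).

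Leaving out 1 library gave 2 genes called with H2O2 over the lines, 4 to 8 for arsenite against H2O2 (8 without WT H2O2 replicate 2, and 7 without WT arsenite replicate 2 or replicate 3), 0 with both interactions, 2 with arsenite in vector cells, 3 to 8 in WT cells (3 without WT arsenite replicate 1), and 2 to 3 in the D162R R234D and SxxS lines. With H2O2 it gave 0 in vector and SxxS cells, 0 to 5 in WT and 0 to 2 in D162R R234D cells, and it gave 0 to 5 for WT against vector over the treatments and 0 in each other comparison of lines. Of the 69 tested list genes 56 to 61 were called with arsenite and 14 to 24 with H2O2; the latter count was 8 without the filter, 34 without both outlying libraries and 10 over the 3 lines other than WT.

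Values that were called in neither setting changed sign. With H2O2 those without both outlying libraries were -0.01 for PRDX1, -0.05 for PRDX5, -0.02 for PRDX6 and -0.04 for GPX4, and those over the 3 other lines -0.04 for PRDX5, -0.01 for PRDX6 and -0.09 for GPX4. GPX1 with arsenite over those lines was -0.00. PRDX4 for arsenite against H2O2 was -0.02 with DESeq2 size factors, -0.03 with total counts, -0.01 with filterByExpr, -0.04 without a filter, -0.02 with only the groups compared, -0.03 over the 3 other lines and -0.02 in DESeq2. With 1 library left out, values ran from -0.04 to 0.01 for PRDX6 with arsenite, from -0.01 to 0.07 for PRDX1, -0.05 to 0.10 for PRDX5, -0.02 to 0.04 for PRDX6, -0.12 to 0.03 for GPX1 and -0.03 to 0.11 for GPX4 with H2O2, and from -0.05 to 0.07 for PRDX4 and -0.06 to 0.01 for PRDX6 between the agents.

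Replicate numbers are shared between groups. Of 24 same-numbered pairs of treated and untreated libraries 9 correlated above 0.1 (-0.56 to 0.60). Only in the D162R R234D line with H2O2 did all 3 pairs do so (0.27 to 0.60). With 3 pairs per line and agent, these correlations cannot decide whether same-numbered libraries were handled together. The replicate block left 7 genes called with arsenite and 2 with H2O2 over the lines, and in the D162R R234D line with H2O2 it left PRDX3 (adjusted p = 0.0181) and CAT (0.0296) called. The causes of these changes were not tested. Depth was not limiting for the 10 genes, the least counted of which had 84511 counts over all libraries. With H2O2 in vector cells 303 genes were called over all libraries and 2219 without both outlying libraries.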
